A study of Mus musculus with 9 samples.

Results

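A set of 10 genes of late spermatogenesis (10 of the 19057 genes with a named probe on the array) was followed over 9 mouse arrays: Ldhc, Fabp9, Catsperz, Cox8c, Tcte3, Clgn, Acr, Zpbp, Dbil5 and Hspa1l. They were chosen as spermatocyte and spermatid genes whose signal varied among the arrays of cultured spermatogonial stem cells, and every probe carrying their current symbol or a synonym was taken. The choice named no threshold. It used the levels on the stem cell arrays, so these are described below without a test. The 9 single-colour Illumina arrays fall into 3 groups of 3, all from C57BL/6 mice. Putative female germ cells (PFGC) were obtained by magnetic sorting, as were the oocytes, and the spermatogonial stem cells (SSC) were cultured. The series title presents PFGC as derived from SSC. Antibody, animal age, tissue and any treatment are not stated in the labels, which also do not say whether replicates were separate cultures or animals. A p-value therefore measures the spread between these samples, which may be technical. Sorting against culture cannot be told apart from cell type in any comparison with SSC.

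Spermatogonial stem cells divide in the basal layer of the testis tubule, and their progeny enter meiosis as spermatocytes and become haploid spermatids that grow an acrosome and a flagellum. Genes for sperm metabolism, the acrosome, the flagellum and germ-cell chaperones are switched on in pachytene spermatocytes and round spermatids, and are low in the stem cells. Transcription factors that act on such genes include A-MYB (Mybl1) in spermatocytes and CREM in spermatids. CREM binds the cAMP response element and MYB factors bind an AACNG core.

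The 10 genes hold several roles. Ldhc encodes the germ-cell lactate dehydrogenase of sperm glycolysis, and Cox8c a testis form of a small subunit of cytochrome c oxidase. Fabp9 encodes the fatty acid binding protein of the testis, and Dbil5 an acyl-CoA binding, diazepam-binding inhibitor-like peptide of spermatids. Catsperz is an auxiliary subunit of CatSper, the calcium channel of the sperm tail, and Tcte3 is a dynein light chain of the flagellum. Acr encodes acrosin, the acrosomal protease, and Zpbp another acrosomal protein, which binds the zona pellucida. Clgn encodes calmegin, the endoplasmic reticulum chaperone that assembles sperm surface proteins, and Hspa1l a heat shock protein of the HSP70 family made in spermatids.

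Promoter sequences from RefSeq (assembly GRCm38.p6) matched 6 of the 10 genes: Ldhc, Catsperz, Tcte3, Zpbp, Dbil5 and Hspa1l. The 250 bases before the start site are shown, 5′ to 3′ on the coding strand, for the 3 of these 6 genes that differed most among the SSC arrays and for Hspa1l, which did not share their pattern. Capitals mark the half-site of the cAMP response element (TGACG, or CGTCA on the other strand) and the MYB core searched here (AACTG, or CAGTT on the other strand). Other forms of the AACNG core were not searched and are not marked. No marked motif overlaps another. Ldhc, start site 1, lies at chr7:46861013-46861262 on the plus strand, Catsperz at chr19:6925381-6925630 on the minus strand, Tcte3 at chr17:15041560-15041809 on the minus strand and Hspa1l at chr17:34972453-34972702 on the plus strand.
Ldhc: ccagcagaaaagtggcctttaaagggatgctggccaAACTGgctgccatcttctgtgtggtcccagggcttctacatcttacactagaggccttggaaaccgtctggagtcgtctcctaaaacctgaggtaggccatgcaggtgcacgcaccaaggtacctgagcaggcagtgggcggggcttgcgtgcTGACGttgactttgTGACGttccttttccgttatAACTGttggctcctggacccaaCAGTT
Catsperz: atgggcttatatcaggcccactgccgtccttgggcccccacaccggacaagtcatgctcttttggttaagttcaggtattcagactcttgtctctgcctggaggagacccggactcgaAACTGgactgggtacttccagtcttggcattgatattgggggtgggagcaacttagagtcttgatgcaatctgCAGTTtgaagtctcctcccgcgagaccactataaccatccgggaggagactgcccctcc
Tcte3: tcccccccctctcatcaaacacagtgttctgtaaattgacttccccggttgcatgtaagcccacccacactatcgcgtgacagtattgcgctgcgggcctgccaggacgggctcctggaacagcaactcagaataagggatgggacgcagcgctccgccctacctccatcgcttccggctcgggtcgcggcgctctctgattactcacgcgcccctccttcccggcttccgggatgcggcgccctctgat
Hspa1l: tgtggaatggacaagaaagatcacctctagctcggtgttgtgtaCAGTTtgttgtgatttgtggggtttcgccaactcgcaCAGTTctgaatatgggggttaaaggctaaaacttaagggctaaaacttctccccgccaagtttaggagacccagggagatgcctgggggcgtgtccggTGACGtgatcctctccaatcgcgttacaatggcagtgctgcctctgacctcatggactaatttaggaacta

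The Ldhc window held TGACG at 61 and 47 bases before the start site, AACTG at 214 and 27, and CAGTT at 5. Catsperz had AACTG at 132 and CAGTT at 59, with no TGACG in either orientation. Hspa1l had TGACG at 71 bases and CAGTT at 206 and 169 bases before the start. Tcte3 and Zpbp held neither TGACG nor AACTG in either orientation, and Dbil5 held CGTCA at 30. Of the AACNG core, only AACTG was searched. Other forms do occur: the Tcte3 window holds cggtt, which is AACCG on the other strand. Zpbp and Ldhc hold ccgtt, which is AACGG on the other strand. Absence of AACTG is therefore not absence of a MYB core. Across 32536 promoters of the same length, 17.9% held TGACG and 39.2% held AACTG in either orientation, so both are frequent. The full palindrome TGACGTCA, found in 1.56% of promoters, and TATAAA, found in 12.3%, were in none of the windows of the 6 genes searched. The Tcte3 window was rich in bases G and C, at 62.0% with 21 CG pairs, against a median of 52.4% and 6 CG pairs over all promoters. Gm3417 and Gm3448, near copies of Tcte3, have promoter windows 100% identical to it over 250 bases. No probe sequence was aligned, so whether the Tcte3 probe also reads their transcripts was not tested.

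The arrays were comparable in quality. Of 45281 probes, 38.9% to 41.8% were detected per array, and the median signal was 104 to 122. Oocyte markers matched the labels: Gdf9, an oocyte growth factor, averaged 10.80 ± 0.31 on the log2 scale in PFGC (SD, n = 3) and 11.67 ± 0.14 in oocytes, against 5.78 ± 0.45 in SSC, and Figla, Zp3 and Bmp15 were detected on no SSC array. Gfra1, the GDNF receptor of spermatogonial stem cells, stood at 5.96 ± 0.26 in PFGC, 4.53 ± 0.21 in oocytes and 8.77 ± 0.29 in SSC, and Ret, Zbtb16 and Etv5 were also highest in SSC. Of 16 undifferentiated spermatogonia genes measured, 13 were lower in PFGC than in SSC by limma (adjusted p under 0.05). The other 3, Upp1, Tspan8 and Foxo1, were higher in PFGC and in oocytes than in SSC. Over all genes, 27.7% were lower in PFGC than in SSC and 24.5% higher. Probes with a detection p under 0.01 on 3 or more arrays were kept for testing. They cover 11077 genes, each read from its brightest kept probe. Of the 18 probes of the 10 genes, 14 were kept, and each gene had at least 1. Levels below are log2 of the normalized signal. They compare groups within a probe and not genes with each other. In bulk RNA, fewer cells of a type and less RNA per cell cannot be told apart.

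SSC replicate 2 stood apart from the other SSC arrays. It gave the highest SSC level for 9 of the 10 genes, all but Hspa1l, and exceeded every PFGC array for all 10. The shares of all genes that did so were not worked out. For Dbil5 and Hspa1l, SSC replicates 1 and 3 also exceeded every PFGC array. Over the whole array, 71 of 11077 genes (0.641%) lay at least 2 log2 units above both other SSC arrays on replicate 2, and 6 of the 10 genes were among them. No gene did so on SSC replicate 1 or 3, and no gene lay 2 units below both others on replicate 2. Values that rest on the SSC group are therefore given with and without that array. Since SSC levels chose the 10 genes, their counts here, with the 6 among the 71, are a description and not support.

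**Figure D1:**
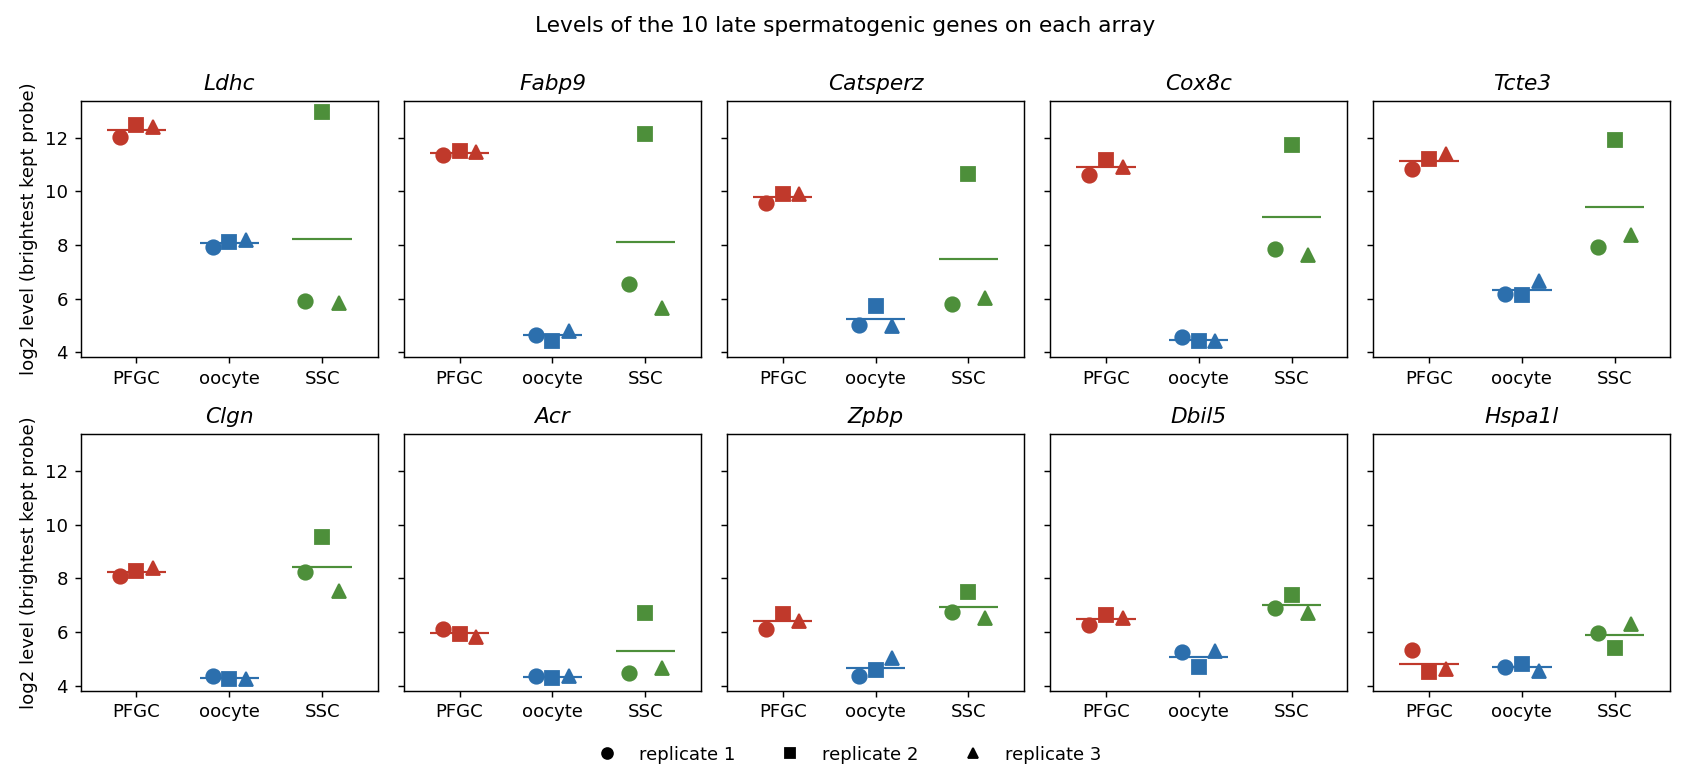
Log2 level of the brightest kept probe (y axis) of the 10 genes on each of the 9 arrays, with PFGC in red, oocytes in blue and SSC in green; symbols mark the replicate number and lines the group mean. PFGC arrays lie above oocyte arrays for 9 genes, and the green squares (SSC replicate 2) lie far above the other SSC arrays for Ldhc, Fabp9, Catsperz, Cox8c and Tcte3.

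Between PFGC and oocytes, the 2 sorted groups, nearly all of these male germ-cell genes were higher in PFGC. The comparison was fitted in limma on the 6 PFGC and oocyte arrays alone, without the SSC arrays that chose the genes, and p-values were adjusted over all 11077 genes. The 10 genes were chosen with earlier results of these data known. Their counts against the background therefore describe them and are not independent support. In all, 9 of the 10 genes were called higher in PFGC at an adjusted p under 0.05, none lower, and Hspa1l was not called. Acr passed the detection filter only through PFGC arrays and 1 SSC array, where it was high, so its call is not counted as support, and 8 of the other 9 genes were called. Those 9 would have passed the filter without the PFGC arrays. The background was 9.74% of all genes called higher (1079) and 5.76% called lower (638). The median log2 difference of the 9 genes other than Acr was 4.23, against -0.01 over all genes. Every PFGC array lay above every oocyte array for 8 of those 9, which held for 19.7% of all genes. With the replicate number as a block, 2937 genes were called in place of 1717, and again 9 of the 10 genes were called, Acr included. Without normalization between arrays, the median over all genes moved to -0.24 and the split of calls turned to 452 higher and 867 lower. There too 9 of the 10 genes were called higher, with Acr included but not counted as support. Folds and bounds below hold on the background-corrected scale: without that correction the log2 differences were 3.85 for Ldhc, 4.29 for Cox8c, 4.75 for Fabp9, 0.55 for Dbil5, 2.97 for Catsperz, 3.82 for Tcte3, 0.65 for Acr, 0.68 for Zpbp and 2.10 for Clgn.

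Both metabolic enzymes were higher in PFGC. Ldhc levels were 12.04, 12.48 and 12.39 on the PFGC arrays, against 7.94, 8.10 and 8.17 on the oocyte arrays. The groups did not overlap, and Ldhc was 18.8-fold higher in PFGC (log2 difference 4.23, SE 0.14, adjusted p = 1.34e-06). Its probe was detected on all 3 oocyte arrays. When all 9 arrays shared the estimate of spread, which then took in the SSC arrays, the adjusted p of Ldhc was 0.0948 at the same difference, the highest over its alternatives (lowest 2.14e-09). Both other Ldhc probes gave similar differences, 4.08 and 4.34. Cox8c stood at 10.60, 11.16 and 10.92 in PFGC, against 4.57, 4.43 and 4.40 in oocytes, where the probe was not detected. That made it at least 51.5-fold higher (log2 difference 6.42, SE 0.15, adjusted p = 2.05e-07). Here and below, a bound of this kind sets the PFGC mean against the lowest level of any detected probe on the oocyte arrays, or the probe's own level where that was higher.

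Both lipid-binding proteins were higher in PFGC. Fabp9 levels were 11.36, 11.51 and 11.47 in PFGC, with only 0.15 log2 units between the highest and lowest array, against 4.66, 4.42 and 4.79 in oocytes. The oocyte arrays did not detect it, and Fabp9 was at least 75.7-fold higher in PFGC (log2 difference 6.82, SE 0.13, adjusted p = 1.51e-07). Dbil5 was closer to background, at 6.28, 6.63 and 6.53 in PFGC against 5.27, 4.69 and 5.30 in oocytes. It was detected on 2 of 3 oocyte arrays and was 2.62-fold higher in PFGC (log2 difference 1.39, SE 0.19, adjusted p = 0.00217).

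Both flagellar genes were higher in PFGC. Catsperz gave 9.58, 9.89 and 9.89 in PFGC, against 5.02, 5.71 and 4.98 in oocytes, of which 1 array detected it. The difference was 23.4-fold (log2 4.55, SE 0.21, adjusted p = 6.98e-06), and a dimmer second probe gave a log2 difference of 3.05. Tcte3 stood at 10.81, 11.20 and 11.40 in PFGC and at 6.17, 6.12 and 6.64 in oocytes, all of them above background. It was 28.4-fold higher in PFGC (log2 difference 4.83, SE 0.19, adjusted p = 3.56e-06). A second Tcte3 probe was detected on none of the 9 arrays.

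The acrosomal genes lay near the lower limit of the arrays. Acr had levels of 6.12, 5.94 and 5.81 in PFGC, against 4.35, 4.27 and 4.37 in oocytes. It was detected on 4 arrays, the 3 PFGC arrays and SSC replicate 2, so it passed the filter only through those. Its PFGC level was at least 1.68-fold above the oocyte level (log2 difference 1.63, SE 0.12), given as a value without a test. Zpbp stood at 6.11, 6.67 and 6.41 in PFGC and at 4.35, 4.58 and 5.03 in oocytes, where no array detected it. It was at least 2.28-fold higher (log2 difference 1.74, SE 0.20, adjusted p = 0.00106). The second probes of Acr and Zpbp were detected nowhere.

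The 2 chaperones parted. Clgn gave 8.08, 8.29 and 8.37 in PFGC, against 4.35, 4.25 and 4.25 in oocytes, and was not detected on any oocyte array. It was at least 8.25-fold higher in PFGC (log2 difference 3.97, SE 0.12, adjusted p = 8e-07), and its second probe differed by 2.82. Hspa1l levels were 5.32, 4.50 and 4.61 in PFGC and 4.69, 4.80 and 4.55 in oocytes. It was detected on 1 PFGC array and no oocyte array, the groups overlapped, and the difference of 0.13 (SE 0.21) did not pass the test (adjusted p = 0.732).

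**Figure D2:**
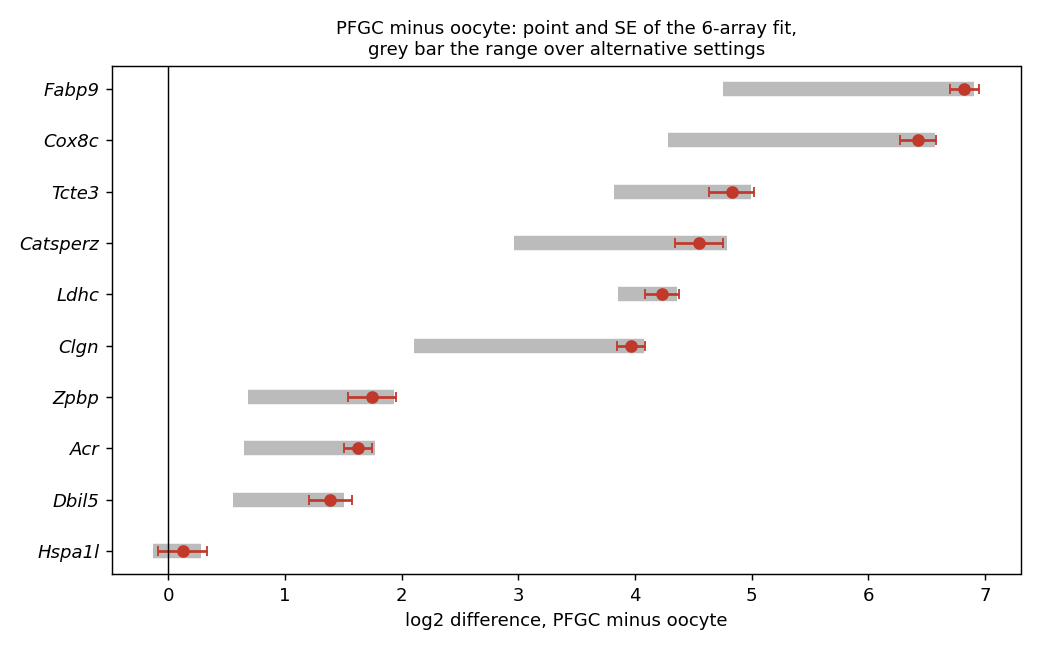
Log2 difference, PFGC minus oocyte (x axis), of the 10 genes in the 6-array limma fit (red point, bars are 1 SE); the grey bar spans the values under the alternative settings. For 9 genes the values stay above 0 under every setting shown, and Hspa1l crosses 0.

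Within SSC, most of the spread of Ldhc, Fabp9 and Catsperz was that of a single array. Ldhc levels were 5.92, 12.95 and 5.83 on SSC replicates 1, 2 and 3, a difference of 7.08 log2 units between replicate 2 and the mean of the others. Fabp9 gave 6.55, 12.13 and 5.66, a difference of 6.02. Catsperz gave 5.79, 10.65 and 6.01, a difference of 4.75. In each case replicate 2 was high. The other arrays were close together for Ldhc and Catsperz, and less so for Fabp9. For comparison, PFGC arrays spanned 0.44, 0.15 and 0.31 log2 units for these 3 genes.

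Cox8c and Tcte3, like Ldhc, Fabp9 and Catsperz, were detected on all SSC arrays by brightest probe and were highest on replicate 2. Cox8c levels were 7.83, 11.72 and 7.61 on SSC replicates 1, 2 and 3. Tcte3 levels were 7.92, 11.91 and 8.38. All 3 SSC arrays detected the brightest probe of every gene of the 10 except Acr. Acr, at 4.48, 6.71 and 4.66, was detected on replicate 2 alone among the SSC arrays.

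The other members varied less. Clgn gave 8.24, 9.53 and 7.52 by its brightest probe, a difference of 1.65 log2 units, and its second probe differed by 3.07. Zpbp gave 6.74, 7.50 and 6.52, and Dbil5 gave 6.89, 7.39 and 6.73, differences of 0.87 and 0.58. Hspa1l went the other way, at 5.97, 5.40 and 6.31, so that SSC replicate 2 was its lowest SSC array.

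The PFGC means lay below SSC replicate 2 for all 10 genes. By brightest probe, the PFGC mean minus SSC replicate 2 ran from -1.28 in Clgn to -0.59 in Hspa1l. Among the 10 kept probes, of 7 genes, whose level on SSC replicate 2 exceeded the mean of the other SSC arrays by at least 2 log2 units, the PFGC mean minus SSC replicate 2 ran from -0.91 to -0.64. The ratio of the mean deposited signal in PFGC to that on SSC replicate 2 was 0.572 to 0.780 for the same probes, while their excess on that array ran from 2.14 to 7.08. That selection of probes uses the SSC values that chose the genes. For 6 of the 10 genes, all PFGC arrays lay between SSC replicate 2 and both other SSC arrays. By brightest probe, in Clgn, Zpbp, Dbil5 and Hspa1l they did not. The second Clgn probe did, at 7.47, 7.52 and 7.56 in PFGC and 5.16, 8.19 and 5.07 in SSC. The share of all genes placed in this way, or with a PFGC mean below SSC replicate 2, was not worked out. SSC levels chose the 10 genes, so both counts are descriptions and not support.

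Set against the SSC group as a whole, the differences depended on that array. Ldhc was 4.07 log2 units higher in PFGC than in SSC with all 3 SSC arrays, and 6.43 higher without replicate 2. The same pair of values was 3.34 and 5.34 for Fabp9, 2.30 and 3.89 for Catsperz, 1.84 and 3.17 for Cox8c, 1.73 and 2.99 for Tcte3, and 0.67 and 1.39 for Acr. Clgn changed sign by its brightest probe, at -0.18 with all arrays and 0.37 without replicate 2, and its second probe gave 1.38 and 2.40. Zpbp (-0.52 and -0.23), Dbil5 (-0.53 and -0.33) and Hspa1l (-1.09 and -1.34) were lower in PFGC than in SSC either way. These are descriptions, since SSC levels chose the genes.

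Oocytes lay below SSC for nearly all of the 10. Cox8c was -4.59 log2 units in oocytes relative to SSC with all arrays and -3.25 without replicate 2, Clgn -4.15 and -3.59, Fabp9 -3.49 and -1.48, and Tcte3 -3.10 and -1.84. For Catsperz the values were -2.25 and -0.66, for Zpbp -2.27 and -1.98, for Dbil5 -1.92 and -1.72, for Hspa1l -1.21 and -1.46, and for Acr -0.95 and -0.24. Ldhc was the exception. Its oocyte level differed from the SSC mean by -0.16 with all arrays, but was 2.20 higher than SSC without replicate 2, and the probe was detected on every oocyte array. Cox8c, Clgn, Fabp9, Zpbp, Hspa1l and Acr were detected on no oocyte array, so their oocyte levels are only upper bounds. In SSC, Acr was detected on replicate 2 alone, so its -0.24 sets undetected levels against each other.

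The arrays were also compared without a shared array, by setting SSC replicate 2 minus replicate 1 against the PFGC mean minus SSC replicate 3. Across all 11077 genes the correlation was 0.204. Across 49 late spermatogenic genes outside the 10 it was 0.753. Of these 49, 9 passed the detection filter only with the help of PFGC arrays. Those arrays also enter the comparison, so the value carries that selection. Genes are not independent replicates, and these values describe the arrays only. No value is given for the 10, since SSC replicate 2 helped choose them. Of the 71 genes at least 2 log2 units higher on SSC replicate 2, all 71 had every PFGC array above SSC replicates 1 and 3. The share of all genes that did so was not worked out. These 71 were picked by SSC levels and include 6 of the 10 genes. They also include Adam3, Adam5, Odf4 and Spag6l, which passed the filter only with PFGC arrays. The count is therefore a description and not support. The PFGC mean of the 71 was a median -0.69 log2 units from SSC replicate 2 (range -1.10 to 0.12).

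**Figure D3:**
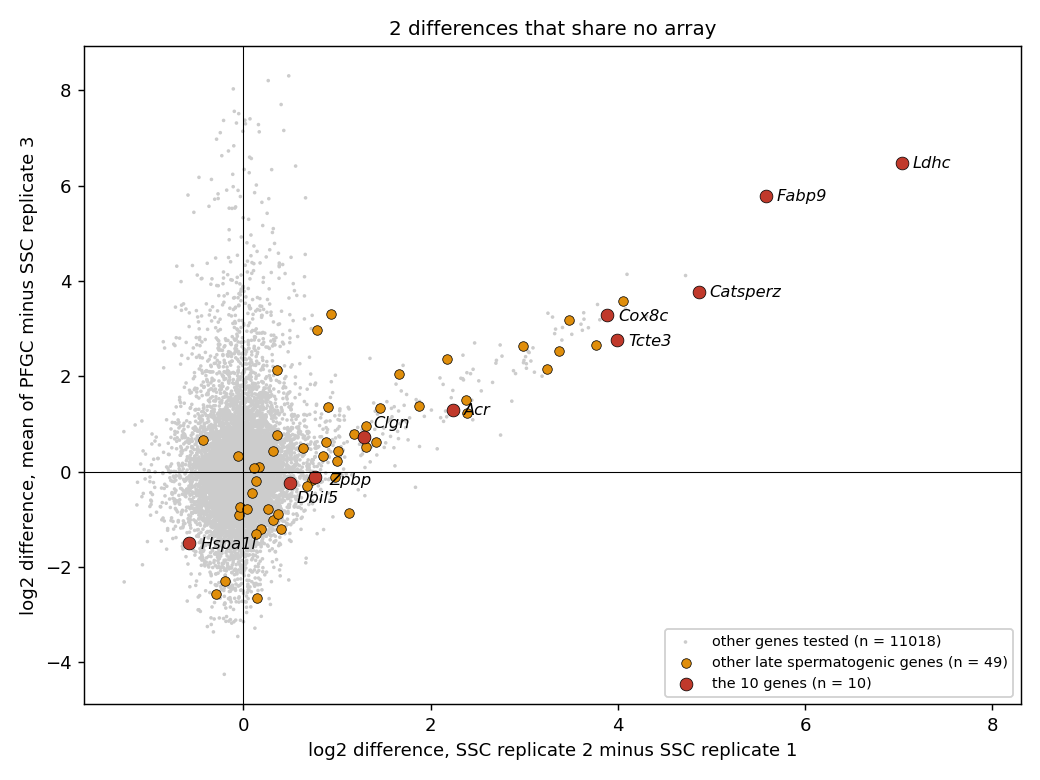
SSC replicate 2 minus SSC replicate 1 (x axis) against the PFGC mean minus SSC replicate 3 (y axis), in log2 units, for the 10 genes (red, named), 49 other late spermatogenic genes (orange) and all other genes tested (grey). Most grey points stay near 0 on the x axis, which used arrays that chose the red genes.

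Summed levels of markers of other cells differed less between the SSC arrays than those of the 10 genes. The 10 were chosen for varying among these arrays, so that contrast was set in advance. Linear sums also rest mostly on the brightest genes of a list. Summed over a list, the linear normalized level of 16 undifferentiated spermatogonia genes was 10151, 9680 and 9048 on SSC replicates 1, 2 and 3, and that of 17 meiotic prophase genes was 9320, 10427 and 7350. For 20 oocyte genes the sums were 1756, 1593 and 1709, and for 16 Sertoli cell genes they were 93518, 90153 and 90523. The 10 late genes summed to 11480 to 14824 in PFGC, 525 to 604 in oocytes and, on the SSC arrays in the same order, 1292, 22453 and 1187. No gene of any marker list lay 1 log2 unit above both other SSC arrays on replicate 2. Between PFGC and oocytes, other lists moved too: meiotic prophase genes summed to 3999 to 4772 in PFGC and 1956 to 2056 in oocytes (10 of 17 called higher, 1 lower), and Sertoli cell genes to 20673 to 30335 and 5871 to 6627 (10 of 16 higher, 1 lower). Undifferentiated spermatogonia genes summed to 4728 to 5380 in PFGC and 4347 to 4551 in oocytes (7 of 16 higher, none lower). Other lists were lower in PFGC in part: 5 of 9 macrophage and leukocyte genes were called lower and none higher, 4 of 20 oocyte genes lower and 1 higher, 3 of 12 granulosa and cumulus genes lower and 1 higher, and 2 of 7 steroidogenic genes lower and 1 higher. Granulosa and cumulus genes summed to 39568 to 44687 in PFGC and 45213 to 49504 in oocytes, against 21075 to 27304 in SSC. The part of these cells in the difference of the 10 genes was not tested.

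The other lists, 6 in all, held 128 other late genes, chosen by role. Of these, 115 had a probe and 49 were measured. The lists too were chosen with earlier results of these data known, so their counts are not independent support. Between PFGC and oocytes, 30 of the 49 rose in PFGC, 2 fell and 17 were not called, with a median log2 difference of 0.80, where 9.74% of all genes rose and 5.76% fell. With all 9 arrays in the fit, 19 rose. Every PFGC array lay above every oocyte array for 34, which held for 19.7% of all genes. Of the 49, 16 were detected on no oocyte array and could have passed the filter only through other groups; 11 of these rose, as did 19 of the 33 detected on at least 1 oocyte array. The filter was passed only with the help of PFGC arrays by 9 of the 49: Tcp11, Papolb, Adam3, Adam5, Pgk2, Odf4, Catsperg2, Spag6l and H2ac1. Of these 8 rose, all but H2ac1, and they are given as values below. The 34 and the counts per list below still hold these 8, whose calls are not counted as support. Of the other 40, 22 rose and 2 fell, with a median log2 difference of 0.75. Among the 24 late genes detected on all 9 arrays 13 rose, where 8.77% of such genes did so.

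Regulators and RNA-binding proteins of spermatocytes rose in 9 of 14, and 1 fell. Tcp11 and Papolb, among the 9, passed the filter only with PFGC arrays. Taf7l, a germ-cell subunit of the general transcription factor TFIID, had levels of 8.72, 9.70 and 9.10 in PFGC and 4.56, 5.27 and 4.74 in oocytes (log2 difference 4.32, adjusted p = 2.8e-05). Piwil1, the PIWI protein MIWI of pachytene spermatocytes, gave 9.58, 9.98 and 9.76 in PFGC and 5.73, 5.49 and 5.81 in oocytes (4.10, adjusted p = 1.43e-06). Tcfl5, a helix-loop-helix factor of spermatocytes, and Ddx25, a germ-cell RNA helicase, rose by 2.64 and 2.05. Crem fell by 0.68 (adjusted p = 0.0116), with levels of 8.36, 8.06 and 8.36 in PFGC and 8.86, 8.90 and 9.07 in oocytes. Mybl1, whose product binds the MYB core, had a single probe that no array detected.

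Among chaperones and the sperm surface proteins they assemble, 6 of 9 rose and none fell. Adam3 and Adam5, among the 6, passed the filter only with PFGC arrays. Tex101, a glycoprotein that takes part in sperm protein maturation, was at least 12-fold higher in PFGC, at 8.54, 8.86 and 8.97 against 4.37, 4.48 and 4.68 in oocytes (log2 difference 4.28, adjusted p = 1.34e-06). Adam5 and Adam3, sperm membrane proteins, were at least 3.94-fold and 1.49-fold higher. Cct6b, a testis subunit of the cytosolic chaperonin, was at least 3.56-fold higher, at 6.80, 7.30 and 7.00 in PFGC against 4.47, 4.50 and 4.73 in oocytes.

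Metabolic isoenzymes and related genes rose in 4 of 6, with 1 lower. Odf4 and Pgk2, among the 4, passed the filter only with PFGC arrays. Odf4, an outer dense fibre protein placed with this list, was at least 5.42-fold higher, at 7.38, 7.87 and 7.67 in PFGC against 4.49, 4.53 and 4.63 in oocytes (log2 difference 3.09). Slc2a3, a glucose transporter that is not limited to germ cells, rose by 1.30, and Cox6b2, a testis subunit of cytochrome c oxidase, by 1.24. Pgk2, the germ-cell phosphoglycerate kinase, differed by 1.18. Ace, which has a testis form, fell by 0.43 (adjusted p = 0.0384).

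Flagellar genes rose in 9 of 12 and none fell. Spag6l and Catsperg2, among the 9, passed the filter only with PFGC arrays. Rsph1, a radial spoke protein, gave 11.44, 11.84 and 11.67 in PFGC against 7.14, 7.38 and 7.31 in oocytes, a 20.7-fold difference (log2 4.37, adjusted p = 9.29e-07). Tuba3a, a testis alpha tubulin, was 14.5-fold higher and Tekt1, a tektin of axonemal microtubules, 4.75-fold. Spag6l, a protein of the axoneme's central pair, was at least 6.55-fold higher. Of 4 acrosomal genes 1 rose, Acrbp, the acrosin-binding protein, by 0.78 (adjusted p = 0.0212). Of 4 genes for spermatid chromatin and late enzymes 1 rose, Rnf138rt1, by 2.38.

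Many of the late genes were below detection. The lists hold spermatocyte regulators as well as spermatid genes. Among the 115 late genes with a probe, 66 (57.4%) had none that passed the filter, where 41.9% of all genes with a named probe had none, and 49 of those 66 were detected on no array. They include Tnp2, a transition protein, Prm3, a protamine-related gene, Acrv1 and Spam1 of the acrosome and Akap4, the main protein of the fibrous sheath. Prm1, which encodes a protamine, was detected on 1 array, a PFGC one. Tnp1, the other transition protein, was measured at 4.39, 4.89 and 4.58 in PFGC, 4.59, 4.36 and 5.11 in oocytes and 5.30, 5.57 and 5.40 in SSC, and only the SSC arrays detected it. A probe that is not detected gives only an upper bound.

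Set against SSC, 8 of the 49 other late genes were higher in PFGC, 13 lower and 28 not called (median log2 difference 0.14, against -0.06 over all genes). The background was 24.5% of all genes higher and 27.7% lower. Without SSC replicate 2, an alternative chosen after seeing the data, 22 were higher and 12 lower, against a background of 24.2% higher, and 4 and 5 were higher without SSC replicates 1 and 3. In oocytes 5 of the 49 were higher than in SSC, 26 lower and 18 not called (median -0.87, against -0.07 over all genes), with backgrounds of 28.6% and 33.1%. Leaving out SSC replicate 2 gave 8 higher and 25 lower. Both comparisons share the SSC arrays. Of the 49, 18 lay at least 1 log2 unit above both other SSC arrays on replicate 2, where 1.38% of all genes did, and 9 lay at least 2 units above. These 9 were Piwil1, Ybx2, Cct6b, Adam3, Adam5, Odf4, Tekt1, Spag6l and Rsph1.

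**Figure D4:**
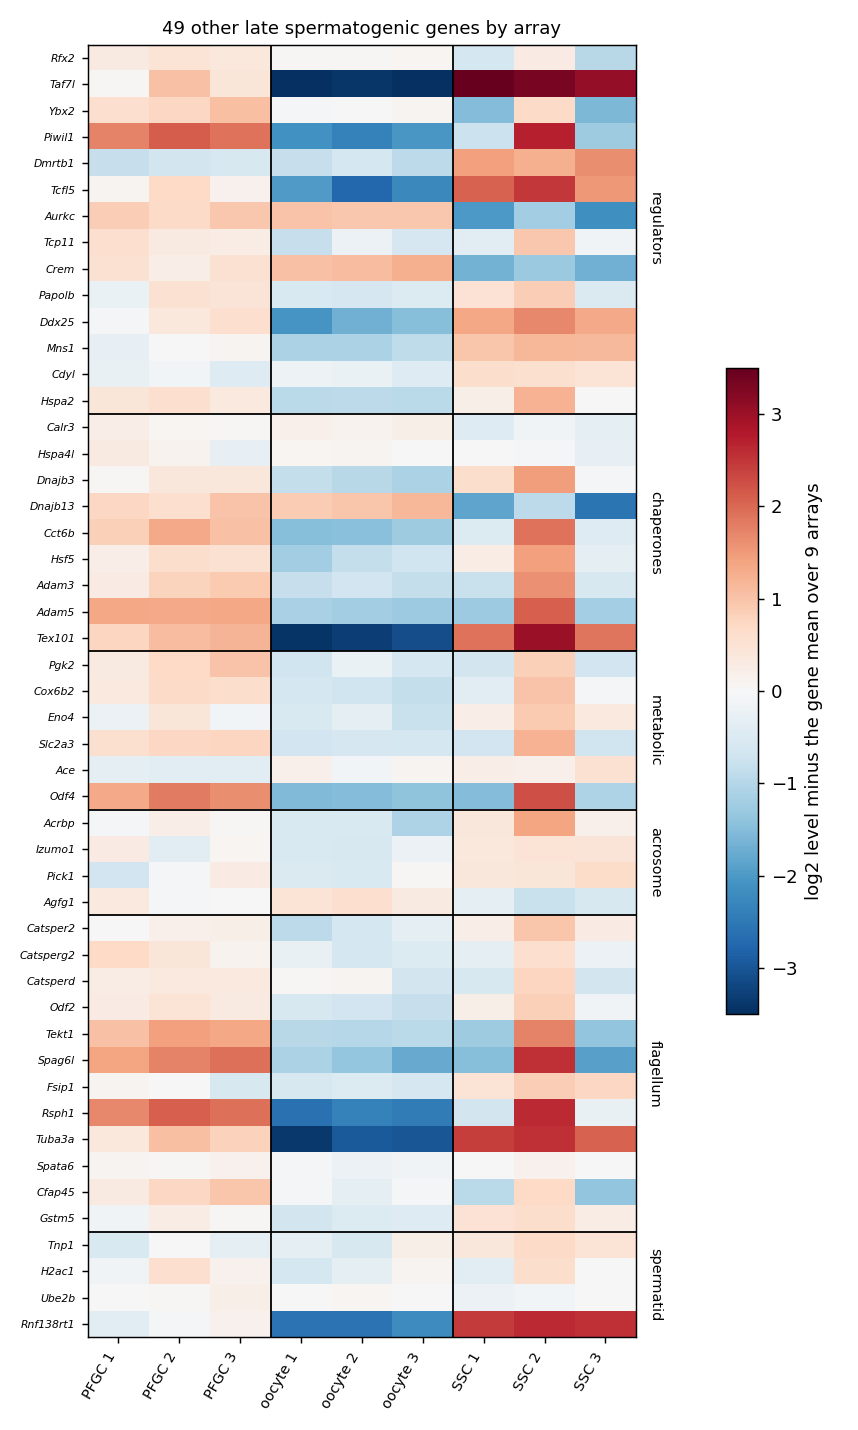
Log2 level minus the gene's mean over 9 arrays for the 49 other late genes (rows, grouped by list) on PFGC, oocyte and SSC arrays (columns); red is above and blue below the mean, and colours saturate at 3.5 log2 units. SSC replicate 2 is redder than its neighbours in 18 rows by at least 1 log2 unit, while rows such as Tuba3a and Rnf138rt1 are even across SSC.

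Relatives of the 10 genes, most of them expressed in many tissues, were read in the same way. Of 11 measured, 3 rose in PFGC relative to oocytes and 8 were not called, with a median log2 difference of 0.03. Ldha, the common lactate dehydrogenase subunit, stood at 13.04, 12.85 and 12.88 in PFGC, 13.25, 13.14 and 13.07 in oocytes and 11.12, 11.50 and 11.25 in SSC. Ldhb, the heart-type subunit, was not called between PFGC and oocytes (-0.14), and neither was Fabp5 (0.16), Calr (-0.09), Dynlt3 (0.04) or the heat shock genes Hspa1a (-0.37), Hspa1b (-0.88) and Hspa8 (0.03). Fabp3 rose by 0.70 and Dbi, the ubiquitous relative of Dbil5, by 0.54, and neither was called without normalization. Hspa2, the HSP70 protein of spermatocytes, rose by 1.38 (adjusted p = 0.000112) and was the 1 relative at least 1 log2 unit higher on SSC replicate 2, at 11.15, 12.16 and 10.95 in SSC.

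The genes most like the 10 in pattern were ranked by Pearson correlation over the 9 arrays with the mean of their scaled profiles. Ttc29, a tetratricopeptide repeat protein, came first at r = 0.997, followed by Syngr4 (0.996), Phf7 (0.989), Lypd9 (0.988), Rsph1 (0.987), Spata33 (0.985), Hspa2 (0.984) and Dnajc5g (0.982). The 9 arrays share 3 groups, so these values describe likeness only. For the 10 genes themselves, the mean includes the gene in question, and SSC levels chose them. Their values are therefore not comparable with those of the outside genes. Of the 10, Cox8c (0.989) and Tcte3 (0.977) were nearest to the shared profile. Clgn (0.959), Fabp9 (0.942), Acr (0.930), Catsperz (0.925), Zpbp (0.905) and Dbil5 (0.876) came next. Ldhc was further away at 0.714, with its higher oocyte than SSC replicate 1 and 3 levels, and Hspa1l was apart at 0.216.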

How the data were processed

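Total RNA from 9 samples (3 groups of 3) was labelled with biotin and read on single-colour Illumina arrays, per the labels' protocols. GenomeStudio was used by the authors, per the submitters' processing notes, in a version not given in the sources used here. Per the file headers, the authors deposited a non-normalized intensity and a detection p-value for each probe on every array; intensities are linear and detection p-values are multiples of 1 over 936. A processed intensity table, also deposited, with its normalization not stated, served as an alternative. Probe names came from the platform annotation: 34885 of 45281 probes had 1 symbol, 18 several and 10378 none, and 34807 matched RefSeq (GRCm38.p6) by identifier. No probe sequence was aligned, so near-identical genes may share signal.

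Signals were background corrected by the normal-exponential model (limma 3.58.1, R 4.3.3; offset 16), quantile normalized over 9 arrays and taken to log2. Probes detected at p under 0.01 on at least 3 arrays were kept (19934, of which 17171 had 1 symbol). A gene was read from its brightest kept probe; 4212 of 11077 genes had several. Groups were compared with lmFit and eBayes, two-sided, with Benjamini-Hochberg adjustment over all genes, on the 6 PFGC and oocyte arrays or, for SSC, on all 9. The code was tested on simulated data. The median standard error between PFGC and oocytes was 0.14 log2 units, a precision limited by the number of arrays.

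Replicate numbers in the labels were checked for pairing: deviations of same-numbered arrays correlated at 0.32, 0.24 and 0.58 between PFGC and oocytes, 0.23, 0.22 and 0.43 between PFGC and SSC, and 0.22, 0.13 and 0.40 between oocytes and SSC. All exceed 0.1, so a block for the number was run as an alternative. The 10 genes and all lists were chosen with earlier results of these data known. Named genes are the 10 with all probes, up to 4 called genes per late list, direction and comparison, the measured relatives, the 8 genes most like the 10 in pattern, and 8 defining markers. Other alternatives were the normalization, the background correction, the offset, the processed values, the detection filter, the probe per gene, the variance model, the arrays in the fit and leaving out each array.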

Additional observations from a re-analysis of the deposited data

How the results depend on the processing

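For the differences between PFGC and oocytes, 180 alternative values of the 10 genes kept their direction and their side of the threshold, 1 lost its call (Ldhc, with all 9 arrays in the fit, adjusted p = 0.0948) and 1 changed sign (Hspa1l, -0.13 to 0.28 without 1 array). Without background correction the differences shrank, to 4.75 for Fabp9, 2.10 for Clgn and 0.55 for Dbil5. All 9 calls were kept, that of Acr included. With detection required on all 9 arrays, 2 of the 10 genes were tested and both were called. The count of genes called between PFGC and oocytes was 1717. It was 2937 with the replicate block, and 780 to 1421 without 1 array; it was 780 without PFGC replicate 2, 804 without oocyte replicate 1 and 817 without oocyte replicate 2, where 2 arrays were left in 1 group. The block gave 6721 in place of 5773 genes between PFGC and SSC and 7637 in place of 6834 between oocytes and SSC, and without 1 array those counts ran from 4981 to 5810 and from 6167 to 6883. The block changed no call among the 10 genes. Without normalization 1319 genes were called between PFGC and oocytes, and oocytes against SSC split into 3353 higher and 2509 lower, in place of 3167 and 3667. Late genes higher in PFGC than in oocytes numbered 19 in place of 30 with all 9 arrays in the fit. Among other named genes, Ace lost its call under 8 alternatives, Acrbp under 3, Dbi under 3, and Crem, Adam3, Pgk2, Slc2a3, Spag6l, Fabp3 and Tekt1 under 1 each. Values near 0 that changed sign were those of Dynlt3 (-0.21 without normalization, and -0.22 to 0.27 without 1 array), Hspa8 (-0.18 without normalization, -0.13 as the mean of its probes, and -0.0034 to 0.069 without 1 array) and Ldhb (-0.40 to 0.16 without 1 array). The cause was not tested. Of 180 heights of 1 SSC array over the others, 2 moved by more than 1 SD, both for Acr on replicate 2 (0.86 with the processed values and 0.85 without background correction, in place of 2.14). Signals of Acr, Zpbp, Dbil5 and Hspa1l lie near background, which limits their fold changes.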

Other observations

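Some late spermatogenic genes outside the 10 followed other patterns. Aurkc, a meiotic Aurora kinase also used by oocytes, stood at 9.08, 8.88 and 9.14 in PFGC, at 9.22, 9.15 and 9.14 in oocytes and at 6.20, 6.99 and 6.06 in SSC. Crem and Dnajb13, a flagellar co-chaperone, were also higher in both sorted groups than in SSC. In PFGC relative to SSC, the log2 difference was 2.62 for Aurkc (adjusted p = 3.74e-06), 1.98 for Crem (adjusted p = 1.89e-06) and 2.53 for Dnajb13 (adjusted p = 0.000114), by limma.

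A further set was highest in SSC, even over the 3 SSC arrays, with PFGC between SSC and oocytes. Taf7l gave 8.72, 9.70 and 9.10 in PFGC, 4.56, 5.27 and 4.74 in oocytes and 12.28, 11.99 and 11.74 in SSC. Tuba3a gave 10.98, 11.67 and 11.42 in PFGC, 7.23, 7.67 and 7.60 in oocytes and 13.04, 13.18 and 12.67 in SSC. Rnf138rt1 levels were 7.11, 7.45 and 7.63 in PFGC, 4.89, 4.91 and 5.28 in oocytes and 9.94, 10.08 and 10.05 in SSC. All 3 genes were called lower in PFGC than in SSC (log2 differences -2.83, -1.60 and -2.62), and none of them was 1 log2 unit higher on SSC replicate 2. Dmrtb1, a regulator of the mitosis to meiosis switch in spermatogonia, was detected on the SSC arrays alone.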
